A study of Homo sapiens with 4 samples.

Results

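Cytochrome P450 (CYP) and UDP-glucuronosyltransferase (UGT) genes were examined in RNA from A549 xenografts. Genes were taken by name, as CYP or UGT followed by a number, letters and a number. Pseudogenes and CYP51A1 were left out. The rule gave 75 of the 38137 genes in the count files, of which 54 were P450 and 21 were UGT genes. A mean of 20 or more reads was found for 45 of them (32 P450 and 13 UGT genes), and ratios between groups are given for these 45. The least counted of the 45 were CYP11A1 (mean 20.25 reads) and CYP2E1 (26 reads), and the most counted below the limit were CYP26A1 (19 reads) and CYP2B6 (18.5 reads).

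P450s are heme enzymes that insert an oxygen atom into steroids, fatty acids, vitamins, drugs and pollutants. Those of the endoplasmic reticulum take electrons from POR, and those of mitochondria take them from FDXR through FDX1. The UGT1A and UGT2 enzymes join glucuronic acid, donated by UDP-glucuronic acid, to such molecules, which makes them soluble enough to be excreted. Liver is best known for both families, and lung epithelium holds a smaller set that acts on inhaled compounds.

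A549 is a human non-small cell lung cancer (NSCLC) line, here grown in 6-week-old male BALB/c nude mice, which lack T cells, with 5 mice per group. The 4 groups were the untreated control, exercise-alone (treadmill, 8.0 m/min for 30 min), radiation-alone (2 Gy of 6 MV X-rays to the tumor) and the combination, with both treatments given in 3 sessions per week over 2 weeks. In the combination, exercise came before radiation on the same day. All groups carried the same tumor line in the same mouse strain. Each group had 1 library, and whether a library held 1 tumor or several is not given in the sources used here. With no replicate library no test between groups was possible, and every interval covers counting error only. Reads assigned to genes numbered 34602535 (control), 34304760 (exercise-alone), 35408705 (radiation-alone) and 33432637 (combination). Ratios between groups are ratios of CPM, the read count divided by a scaled library size, with exact 95% counting intervals. Reads are listed below in the order control, exercise-alone, radiation-alone and combination unless the sentence names the groups. Fewer cells of a type and less RNA per cell cannot be told apart in bulk tumor RNA.

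The 9 UGT1A genes needed a separate account, because each has its own exon 1 joined to the same exons 2 to 5. Their coding exons 2 to 5 came to 735 identical bases. The last 24 bases of each exon 1 (lower case) and the first 24 bases of the shared exon 2 (capitals) are shown to make plain which part of the RNA tells these genes apart. The sequences are from GENCODE v29 on GRCh38, plus strand, and exon 2 begins at chr2:233767034.
UGT1A8: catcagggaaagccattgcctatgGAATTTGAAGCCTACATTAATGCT
UGT1A10: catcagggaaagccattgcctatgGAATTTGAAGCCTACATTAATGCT
UGT1A9: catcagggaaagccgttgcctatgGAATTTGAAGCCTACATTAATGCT
UGT1A7: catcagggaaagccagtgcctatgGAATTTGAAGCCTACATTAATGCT
UGT1A6: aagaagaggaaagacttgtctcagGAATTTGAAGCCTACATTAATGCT
UGT1A5: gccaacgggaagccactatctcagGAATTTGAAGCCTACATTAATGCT
UGT1A4: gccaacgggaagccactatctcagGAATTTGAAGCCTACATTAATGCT
UGT1A3: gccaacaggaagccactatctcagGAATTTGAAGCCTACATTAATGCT
UGT1A1: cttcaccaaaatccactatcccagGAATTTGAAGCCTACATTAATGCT
The 9 genes had 7 distinct exon 1 ends over these 24 bases and 1 exon 2 start. UGT1A8 and UGT1A10 shared an end, as did UGT1A4 and UGT1A5.

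P450 and UGT genes together took 0.225% of control reads, 0.23% of exercise-alone, 0.205% of radiation-alone and 0.212% of combination reads. CYP24A1 alone held 60.4%, 63.4%, 44.8% and 48.1% of the P450 reads in these libraries. The most expressed gene per kb of exon was also CYP24A1, at a mean of 209 CPM per kb over the 4 libraries. The UGT1A genes, whose counts share reads, are left out of the ranking that follows. Among P450 and UGT2 genes, CYP3A5 was next at 32.1 CPM per kb of exon, then CYP4F3 at 21.6, CYP2S1 at 20.8 and CYP4F11 at 17.0. CYP2R1 came next at 7.41, then CYP26B1 at 6.01 and CYP20A1 at 5.95, and every other P450 and UGT2 gene was lower. Over the 4 libraries CYP24A1 ranged from 156 to 268 CPM per kb of exon and overlapped no other gene. CYP3A5 (23.7 to 43.1) and CYP4F3 (19.7 to 22.8) did not overlap each other. The range of CYP2S1, 14.1 to 28.7, overlapped both of them and that of CYP4F11 (15.8 to 18.0). Those of CYP2R1 and CYP26B1 also overlapped, and that of CYP20A1 (5.4 to 6.8) lay within that of CYP26B1 (4.8 to 7.6). Whole gene spans were counted, introns included, so a long gene with few reads is less certain than these values say. Per kb of span, with UGT1A again left out, CYP24A1 was still first, at 27.3 CPM, followed by CYP3A5 at 6.83, CYP4F3 at 5.44 and CYP2S1 at 4.17.

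**Figure D1:**
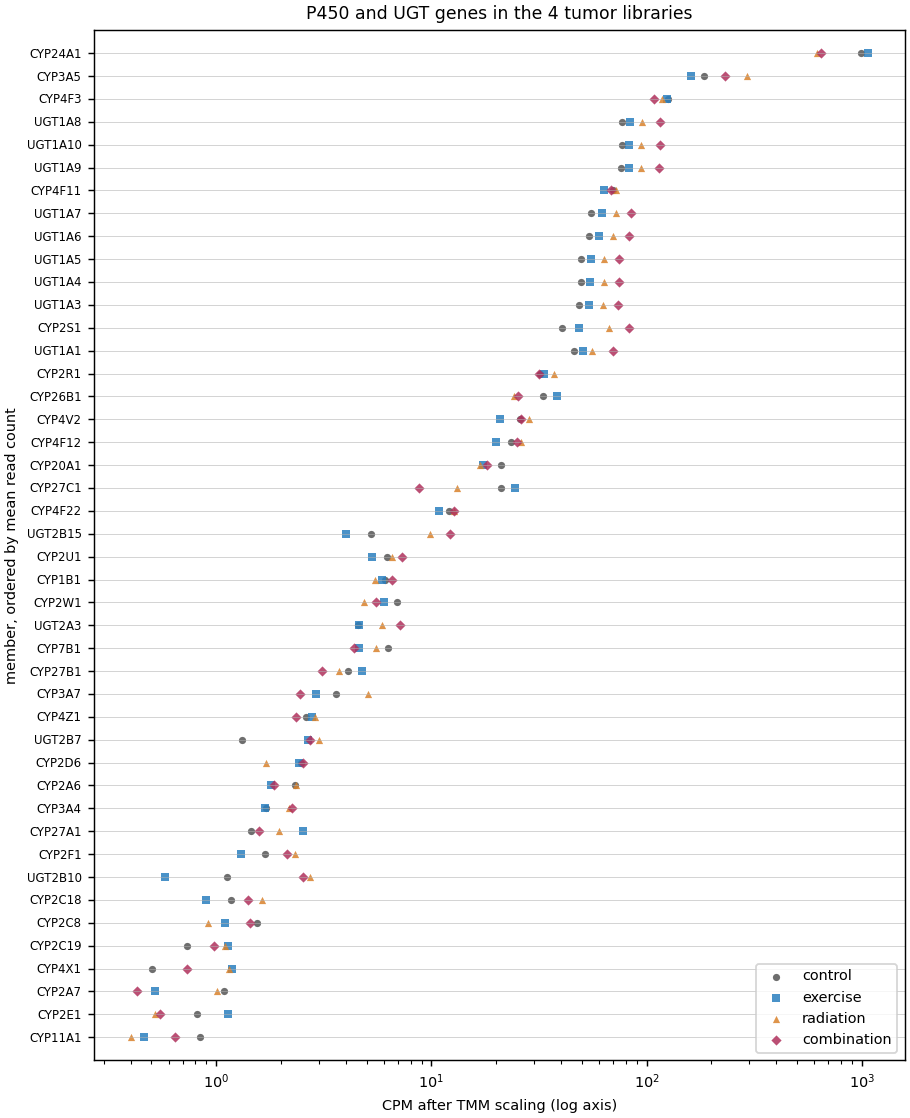
CPM of the genes described with a mean of 20 or more reads, on a log axis, with 1 point for each of the 4 libraries and genes ordered by mean reads. CYP24A1 stands alone at the top (621 to 1066 CPM), and the points of most genes lie close together. Among those spread more widely are the UGT2B genes, CYP27C1, CYP2A7, CYP4X1, CYP2E1, CYP11A1, CYP3A7 and CYP2S1.

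Few of the 45 genes differed by 2-fold or more between any pair of groups. With exercise, 2 exceeded control by 2-fold or more (0.83% of the 19393 genes compared) and 1 was lower (0.701%). With radiation, 3 were higher (1.89%) and 1 was lower (0.897%). In the combination, 4 were higher than in control (2.27%) and 2 were lower (1.77%). Against radiation-alone, the combination had 0 higher (0.418%) and 2 lower (0.887%). Against exercise-alone it had 2 higher (2.92%) and 2 lower (3.06%). The percentages in parentheses are the shares of all compared genes at that fold. The shares of the 45 were above them except for genes higher in the combination than with radiation, but each rests on 0 to 4 genes. The median log2 ratio of the 45 was −0.02 with exercise and 0.23 with radiation against control, and 0.11 in the combination, where the all-gene medians were 0.00, 0.00 and −0.015. The 9 UGT1A counts share most of their reads, and without them the medians of the other 36 genes were −0.15, 0.07 and 0.00. With the deposited FPKM and 0.1 added, the 1 gene still past 2-fold was CYP27C1, lower in the combination than in control and than with exercise. With the whole counting interval required beyond 2-fold, CYP27C1 stayed in the same comparisons, and UGT2B15 and UGT2B10 stayed higher in the combination than with exercise.

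**Figure D2:**
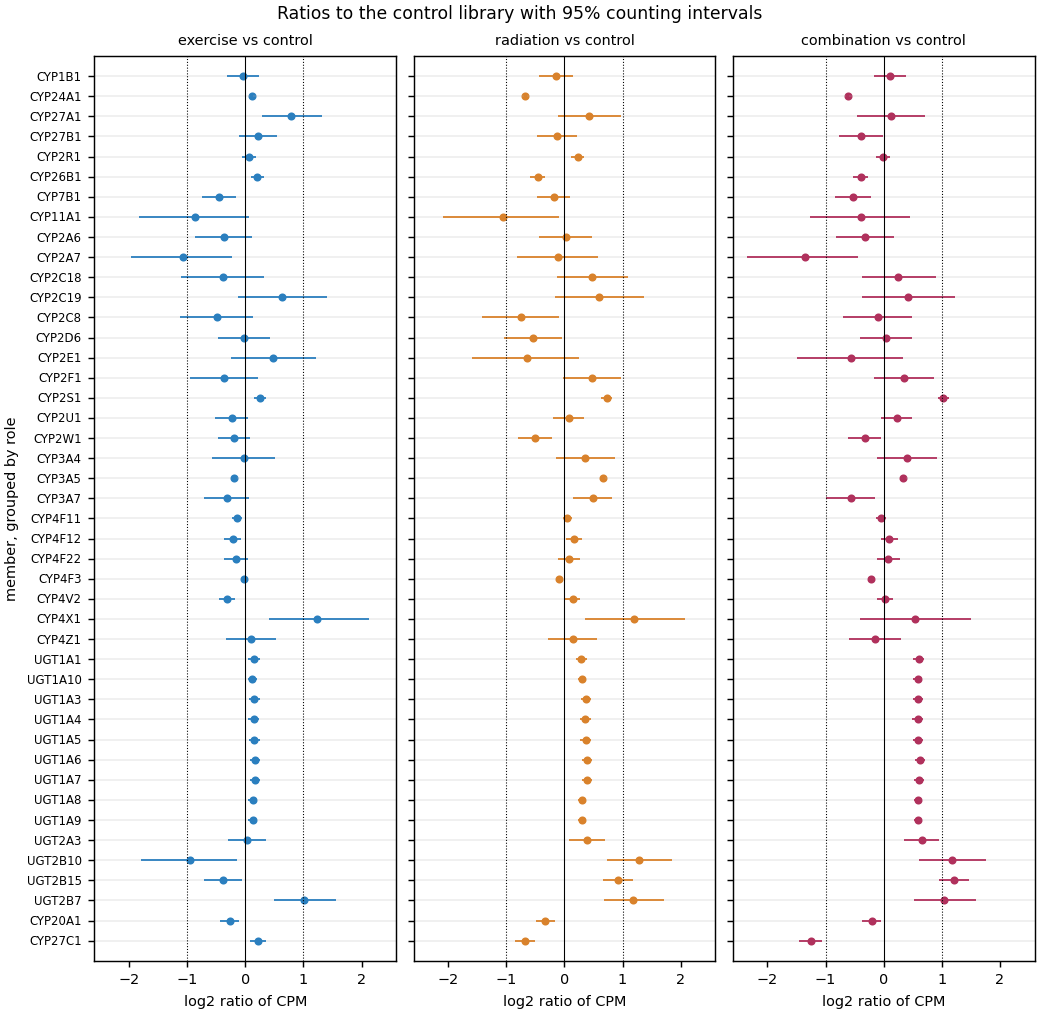
Log2 ratio of CPM to the control library for the genes described, grouped by role, in the exercise-alone, radiation-alone and combination groups. Bars are 95% counting intervals and dotted lines mark 2-fold; the UGT2B genes and CYP2S1 lie right of 0 in the irradiated panels and CYP24A1, CYP26B1 and CYP27C1 lie left of it.

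The CYP1 family oxidises polycyclic aromatic compounds and is induced through the aryl hydrocarbon receptor. CYP1A1 had 2 reads in control and 0 in the other libraries, and CYP1A2 had 0 in all 4. A count of 0 allows up to 3 reads, or 0.084 CPM in control and 0.0916 CPM in the combination, and no fold is given. CYP1B1, the family member of many non-liver tissues, had 217, 204, 191 and 215 reads. Its intervals spanned 1 in every comparison, with a combination-to-control ratio of 1.08 (0.89 to 1.31). The receptor genes were present throughout. AHR had 3559, 3394, 3730 and 3798 reads, and its partner ARNT had 1950, 1851, 1842 and 1656. Of the receptor targets outside the P450s, 4 of 5 could be compared, and 1 was at least 2-fold higher in the radiation and combination groups. This was ALDH3A1, an aldehyde dehydrogenase, with 21059, 26594, 49928 and 40533 reads, 2.43-fold with radiation and 2.10-fold in the combination. TIPARP, a feedback repressor of the receptor, had 682, 756, 858 and 874 reads (combination-to-control ratio 1.40, 1.26 to 1.55). AHRR, another repressor, had 316, 270, 261 and 223 reads (0.77, 0.65 to 0.92), so the pair of repressor genes went opposite ways. NQO1, a quinone reductase, had 32303, 31117, 26308 and 30694 reads. The core letters of the receptor's binding motif, GCGTG on either strand, were found in the 250 bases before the start of 7734 of 23500 RefSeq promoters on GRCh38 (32.9%). They were found for 13 of 55 matched P450 and UGT genes (23.6%), with 1 match for CYP1A1, and for 10 of 35 genes with 20 or more mean reads (28.6%).

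The best counted P450 belongs to vitamin D metabolism. CYP24A1 at chr20:54143538-54173986 encodes the mitochondrial 24-hydroxylase that breaks down active vitamin D. It had 35336 control reads, 36822 exercise-alone, 21605 radiation-alone and 21086 combination reads. Both irradiated libraries were lower than both unirradiated ones. The ratio was 0.63 (0.62 to 0.64) for radiation over control and 0.60 (0.59 to 0.61) for the combination over exercise, a pair of comparisons that share no library. The ratio of exercise to control was 1.08, and that of the combination to radiation was 1.04. CYP27B1, which makes the active hormone, had 146, 164, 130 and 102 reads. Its combination-to-exercise ratio was 0.66 (0.51 to 0.85), and that of radiation to control was 0.91 (0.72 to 1.17). CYP2R1, a vitamin D 25-hydroxylase, had 1137, 1150, 1295 and 1032 reads, the highest with radiation-alone (1.17, 1.08 to 1.27). In one annotation it overlaps PDE3B on the other strand. CYP27A1, a sterol 27-hydroxylase that also acts on vitamin D, had 52, 87, 68 and 52 reads, highest with exercise-alone (1.73, 1.21 to 2.49). The receptor VDR had 204, 191, 130 and 179 reads and was lower with radiation-alone (0.65, 0.52 to 0.82) but not in the combination (0.96, 0.78 to 1.18). RXRA, its partner, had 1993, 2027, 1896 and 1554 reads. Of 7 other vitamin D genes, 2 (VDR and CUBN) had 20 or more mean reads and none was at least 2-fold different in any comparison.

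Retinoic acid is broken down by the CYP26 enzymes. CYP26B1 had 1182, 1318, 839 and 823 reads. It was lower in both irradiated libraries, at 0.73 (0.67 to 0.80) for radiation over control and 0.66 (0.60 to 0.72) for the combination over exercise. CYP26A1 had 15, 26, 18 and 17 reads, and CYP26C1 had 5, 6, 9 and 1. CYP27C1, which converts vitamin A1 to vitamin A2 in skin, had 748 control reads, 841 exercise-alone, 456 radiation-alone and 288 combination reads. Among the P450 and UGT genes with a mean of 100 or more reads, it had the lowest ratio of the combination to control. Its ratio was 0.42 (0.37 to 0.48) for the combination over control, 0.63 (0.56 to 0.70) for radiation over control and 0.36 (0.31 to 0.41) for the combination over exercise. The exercise-to-control ratio was 1.16 (1.05 to 1.28), while the combination stood at 0.67 (0.58 to 0.78) of radiation-alone. Of 7 keratinocyte and sebocyte markers of skin, 5 could be compared, and 2 were at least 2-fold lower with radiation and in the combination than in control. These were the basal keratin genes KRT14, with 287, 397, 115 and 88 reads, and KRT5, with 40, 48, 11 and 18. The other 3 were not lower in the combination, with combination-to-control ratios of 1.20 for FA2H, 1.11 for KRT10 and 1.19 for SCD, and with radiation ratios of 1.43, 1.07 and 0.96. The summed level of the list was 479, 556, 503 and 563 CPM, and KRT1 was at 0 in all libraries. In these tumors the human cells were A549, so skin cells would be of the mouse host. Whether A549 or mouse RNA gave the marker reads, and how far such cells took part in the CYP27C1 result, was not tested. Of 13 further retinoic acid genes, 11 could be compared and 1 was at least 2-fold higher in the irradiated libraries against control. CRABP2, which carries retinoic acid to its receptors, had 33, 52, 78 and 70 reads (2.43-fold with radiation, 1.6 to 3.77).

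Sterol and steroid P450s were scarce. CYP7B1, an oxysterol 7-alpha-hydroxylase, had 225, 159, 193 and 143 reads (combination to control 0.69, 0.56 to 0.86). CYP7A1, the first enzyme of bile acid synthesis, had 0, 1, 0 and 2 reads. CYP8B1, CYP11B1 and CYP11B2 had none in any library. CYP46A1 and CYP39A1, which act on cholesterol of brain and on oxysterols, had 10 to 20 and 4 to 9 reads. CYP11A1, which cuts the cholesterol side chain in mitochondria, had 30, 16, 14 and 21 reads and met the limit narrowly. It was at least 2-fold lower with radiation than in control (0.48, 0.23 to 0.93), and the combination ratio of 0.76 had an interval from 0.42 to 1.38. CYP17A1 had 12, 7, 12 and 26 reads and CYP19A1, the aromatase gene, had 7, 10, 5 and 2. CYP21A2 had 4 to 6.

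CYP2S1 at chr19:41193219-41207539, a P450 of epithelia outside the liver, had the highest ratio to control of the CYP2 genes in the combination. It had 1448 control reads, 1676 exercise-alone, 2334 radiation-alone and 2705 combination reads. The 4 libraries stood in that order from lowest to highest, and the intervals of all 5 comparisons lay above 1. The ratio was 2.04 (1.91 to 2.17) for the combination over control. It was 1.65 (1.55 to 1.77) for radiation over control, 1.70 (1.6 to 1.81) for the combination over exercise and 1.20 (1.11 to 1.28) for exercise over control. CYP2U1, a fatty acid hydroxylase, had 223, 183, 228 and 239 reads. A long noncoding gene covers its whole span and held 873 to 1089 reads, and reads of the overlap may belong to either. CYP2W1, known from colorectal tumors, had 247, 209, 169 and 181 reads (radiation to control 0.70, 0.57 to 0.86).

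The other CYP2 genes described here had at most 88 reads in any library. CYP2A7, a gene with no known enzyme activity, had 39, 18, 35 and 14 reads. It was low in both exercised libraries, at 0.48 (0.26 to 0.85) for exercise over control and 0.42 (0.21 to 0.81) for the combination over radiation. The combination was also at 0.39 (0.20 to 0.74) of control. Its near-identical neighbour CYP2A6, which oxidises nicotine, had 83, 62, 82 and 61 reads, with intervals that spanned 1 in each comparison, and reads of the pair may be exchanged. CYP2E1, the ethanol-oxidising P450, had 29, 39, 18 and 18 reads (combination to exercise 0.49, 0.26 to 0.87). Its radiation-to-control ratio was 0.64, with an interval that spanned 1 (0.33 to 1.19). CYP2D6, a drug-metabolising enzyme with near-identical pseudogenes, had 88, 84, 59 and 83 reads. CYP2C8, which also oxidises drugs, had 55, 38, 32 and 47 reads. CYP2C18 had 42, 31, 57 and 46 reads and CYP2C19 had 26, 39, 38 and 32. None of these 3 was 2-fold different in any comparison. CYP2F1, a lung P450 that activates naphthalene, had 60, 45, 81 and 70 reads. CYP2B6 fell below the mean limit with 23, 5, 16 and 30 reads, and CYP2J2 had 2, 2, 7 and 8.

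CYP3A5 at chr7:99648194-99679996 was the main CYP3A gene. It had 6596 control reads, 5542 exercise-alone, 10139 radiation-alone and 7608 combination reads. Both irradiated libraries were higher than both unirradiated ones. Radiation over control gave 1.58 (1.53 to 1.63) and the combination over exercise gave 1.45 (1.40 to 1.5). The combination was at 0.80 (0.77 to 0.82) of radiation-alone, and exercise at 0.87 (0.84 to 0.90) of control, so the exercised library of each pair was the lower one. The gene lies within ZSCAN25, which runs on the opposite strand and held 7752, 6516, 11246 and 8440 reads, only 832 to 1156 more than CYP3A5. Counting the same reads for both genes, without regard to strand, would give such numbers. CYP3A7, the fetal liver form, had 129, 100, 176 and 80 reads. The combination was at least 2-fold lower than radiation-alone (0.48, 0.37 to 0.63). CYP3A7 also lies wholly within ZSCAN25 and within a readthrough gene on its own strand that held 151, 130, 196 and 94 reads, so its reads may belong to any of them. CYP3A4, the main adult liver drug-metabolising P450, had 61, 58, 76 and 74 reads, with intervals that spanned 1 throughout. CYP3A43 had 3 to 8 reads.

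CYP4 enzymes hydroxylate fatty acids at their far end, and CYP4F3 also inactivates leukotriene B4. CYP4F3 had 4491, 4296, 4109 and 3554 reads, with a combination-to-control ratio of 0.86 (0.83 to 0.90). CYP4F11, which acts on long-chain fatty acids and vitamin K, had 2501, 2193, 2515 and 2227 reads. CYP4F12 had 835, 693, 911 and 821 reads, and CYP4F22, of the skin barrier, had 433, 375, 445 and 419. The ratios of these 4 genes lay between 0.86 and 1.25 in all 5 comparisons. CYP4F2, close in sequence to CYP4F3, had 14 to 17 reads, and reads of such copies may be exchanged. CYP4V2, linked to a retinal disease, had 920, 716, 987 and 855 reads. CYP4X1, an orphan enzyme, had 18, 41, 40 and 24 reads and was at least 2-fold higher with exercise (2.35, 1.32 to 4.35) and with radiation (2.28, 1.28 to 4.23) than in control. Its combination-to-control ratio was 1.45 (0.76 to 2.84). CYP4Z1, its neighbour, had 93, 96, 100 and 77 reads. CYP20A1, an orphan P450, had 750, 601, 582 and 596 reads, lower in all 3 treated libraries than in control, with ratios of 0.83, 0.80 and 0.87.

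Among UGT2 genes, UGT2B15 and UGT2B10 were at least 1.5-fold higher both in radiation over control and in the combination over exercise. The UGT2 genes lie in one cluster at chr4:68537173-69653247, which holds 10 of the 75 genes. UGT2B15, which glucuronidates androgens, had 187 control reads, 139 exercise-alone, 344 radiation-alone and 398 combination reads. Irradiated libraries were higher than unirradiated ones, at 1.89 (1.58 to 2.27) for radiation over control and 3.02 (2.48 to 3.69) for the combination over exercise. The combination was 2.32-fold (1.95 to 2.78) above control. UGT2B10, which conjugates nicotine, had 40, 20, 95 and 83 reads, with the same ranking of irradiated over unirradiated libraries. It was 2.44-fold (1.67 to 3.62) higher with radiation than in control and 4.38-fold (2.66 to 7.53) higher in the combination than with exercise. UGT2B7, which conjugates morphine and bile acids, had 47, 92, 104 and 89 reads. It shares 9881 bases with LOC105377265, which had 6, 24, 14 and 9 reads, and reads of the overlap may belong to either. UGT2B7 was about 2-fold above control in all 3 treated libraries, at 2.02 (1.41 to 2.94), 2.27 (1.6 to 3.28) and 2.07 (1.43 to 3.01). Its combination-to-exercise ratio was 1.02 (0.75 to 1.38). UGT2A3 had 162, 160, 206 and 234 reads (combination to control 1.58, 1.28 to 1.94). It was also higher in radiation over control (1.31, 1.06 to 1.61) and in the combination over exercise (1.54, 1.26 to 1.90).

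The median log2 ratio of these 4 UGT2 genes was 1.045 with radiation and 1.10 in the combination against control, and −0.175 with exercise. Of the 6 others in the cluster, UGT2B17, an androgen-conjugating enzyme, had 8, 14, 19 and 16 reads. UGT2B4, a bile acid enzyme, had 7, 18, 20 and 18, and UGT2B11 had 13, 16, 31 and 11. UGT2A1, UGT2A2 and UGT2B28 had 1 to 5. UGT2B genes are close in sequence, so reads may be assigned to a wrong copy. The FPKM of UGT2B15, UGT2B10 and UGT2A3 imply a length 2.0 times the span used here. Some liver-type secreted genes moved with them in the same libraries. Of 8 hepatocyte markers, 6 could be compared, 2 were at least 2-fold higher with radiation and 3 in the combination against control, and their summed level was 512, 449, 882 and 1265 CPM. Of the 6, 5 were above control with radiation and in the combination. TTR had 268, 222, 928 and 1162 reads and SERPINA1, which held most of the summed level, had 12169, 9771, 23506 and 33242. HNF4A, a further marker of this list, went the other way, with 3617, 3752, 3015 and 2994 reads. Its ratio to control was 0.86 (0.82 to 0.90) with radiation and 0.90 (0.86 to 0.95) in the combination. ALB had 8 to 22 reads and APOA2 had 0. Whether A549 or mouse RNA gave these reads was not tested, nor was the part of these genes in the UGT2 result.

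For UGT1A, the counts fell stepwise with the start of the gene, from 2746 for UGT1A8 to 1634 for UGT1A1 in control. All 9 spans end at the same base, chr2:233773300, and each count held the reads of every gene that starts after it. Subtraction of neighbours gave the reads of each part that opens with its own exon 1. Some of the exon 1 ends shown above are equal or nearly so, and reads of such copies may be placed in a wrong part. The last part, which opens at UGT1A1 and holds the shared exons, had 1634, 1751, 1949 and 2277 reads, higher in each library than in the one before. The combination was 1.52-fold (1.43 to 1.62) above control. The UGT1A9 part had 745, 726, 756 and 985 reads. It was higher in the combination only, at 1.44 (1.31 to 1.59) of control, while the radiation ratio was 1.04 (0.94 to 1.15). UGT1A9 conjugates phenols and drugs, and its part took 22.9% to 27.1% of all UGT1A reads.

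**Figure D3:**
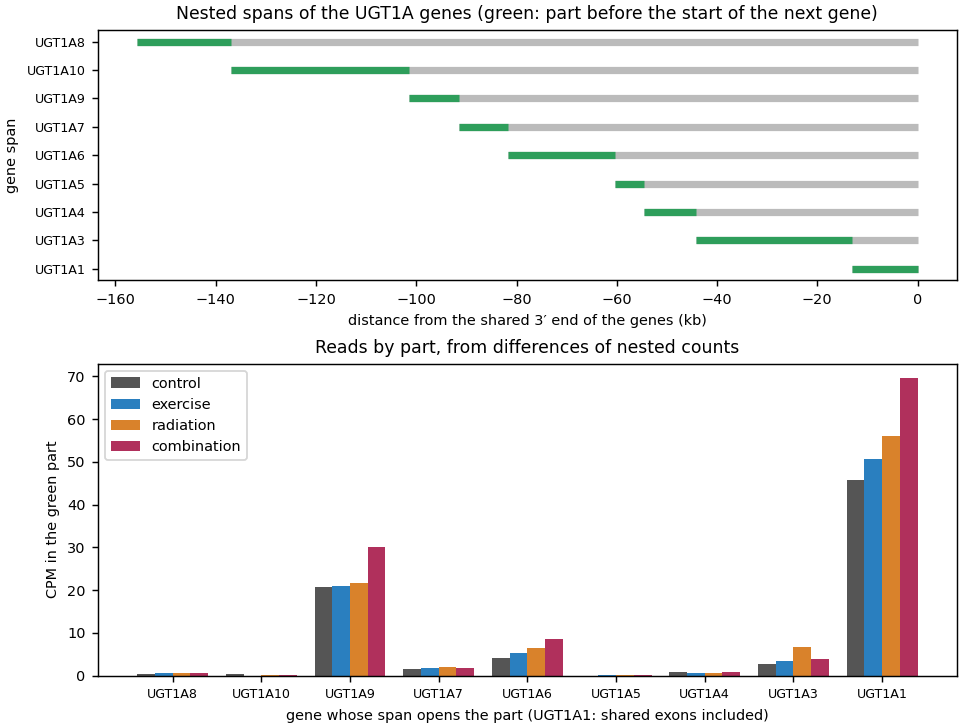
Upper panel: nested spans of the 9 UGT1A genes by distance from their shared end, in kb, with the part before the next gene in green. Lower panel: CPM of each green part in the 4 libraries; the parts that open with UGT1A9 and UGT1A1 hold most reads, and the combination bar is the highest for both.

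UGT1A6 conjugates small flat phenols. Its part had 150, 183, 223 and 278 reads, in the same order as the shared exons, and reached 2.02-fold (1.65 to 2.48) of control in the combination. UGT1A3 acts on bile acids and estrogens. Its part had 102, 118, 237 and 130 reads, 2.39-fold (1.88 to 3.04) with radiation-alone but 1.39-fold (1.06 to 1.82) in the combination, and the combination was at 0.58 (0.47 to 0.72) of radiation-alone. UGT1A7 had 56, 66, 72 and 58 reads in its part and UGT1A4 had 32, 25, 24 and 26. Those of UGT1A8, UGT1A10 and UGT1A5 had 23 or fewer. Pseudogenes lie in the parts that open with UGT1A10 and UGT1A3, and reads over introns count. The aligner does not place reads across introns, so reads over junctions like those shown above can be lost. UGT1A1, the bilirubin enzyme, cannot be read apart from the shared exons here. UGT3A1 and UGT3A2 had at most 6 reads.

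**Figure D4:**
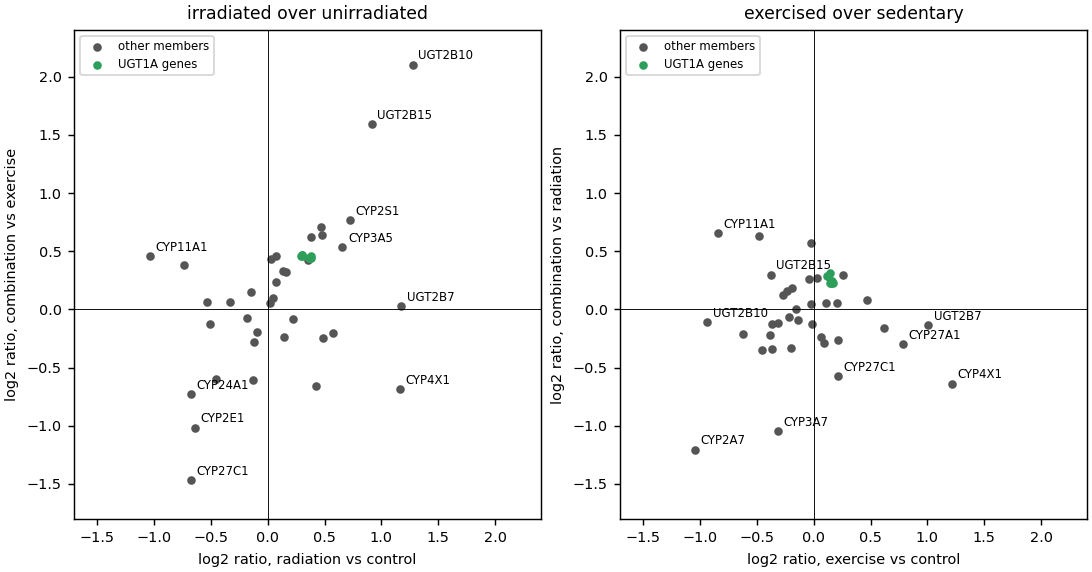
Log2 ratio of the 45 genes in a pair of comparisons that share no library: left, irradiated over unirradiated (radiation over control against combination over exercise), right, exercised over sedentary. On the left 25 genes lie above 0 in both and 9 below 0 in both, and on the right 14 and 14.

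Because the 4 groups form a square, each treatment could be compared in a pair of comparisons that share no library. For irradiated over unirradiated libraries, 25 of the 45 genes were above 0 in both comparisons and 9 below 0 in both, or 75.6%, where all genes gave 67.2%. Counting UGT1A once, 17 and 9 of 37 did so (70.3%). At 1.5-fold in both, 3 genes were higher (UGT2B15, UGT2B10 and CYP2S1), or 6.67%, against 3.18% of all genes. Another 3 were lower (CYP27C1, CYP24A1 and CYP2E1), or 6.67%, against 2.28% of all genes. For CYP2E1 the counting interval of radiation over control spanned 1 (0.33 to 1.19). For exercised over sedentary libraries, 14 were above 0 in both and 14 below 0 in both (62.2%, all genes 50.3%), and 54.1% counting UGT1A once. At 1.5-fold in both, 1 gene (CYP2A7) was lower, or 2.22%, against 0.547% of all genes, and none was higher, against 0.356%.

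Of 11 electron donor genes, all compared, 1 was at least 2-fold higher with radiation, in the combination, and in the combination over exercise. FDXR, which passes electrons to the mitochondrial P450s through FDX1, had 641 control reads, 668 exercise-alone, 1451 radiation-alone and 1698 combination reads. The ratio was 2.32 (2.12 to 2.56) with radiation and 2.89 (2.64 to 3.17) in the combination. Among mitochondrial P450s, CYP24A1 and CYP27C1 were lower in these libraries, CYP27A1 and CYP27B1 were within 1.5-fold of control, and CYP11A1 had few reads. FDX1 had 313, 266, 268 and 272 reads. POR had 2430, 2116, 2386 and 2803 (combination to control 1.26, 1.19 to 1.33). Of 12 heme genes, 16 receptors with 20 or more mean reads, 5 genes of UDP-glucuronic acid supply and 7 efflux transporters, none was 2-fold different in any comparison. UGDH, which makes the UDP-glucuronic acid used by UGT1A and UGT2 enzymes, had 8227, 8995, 6576 and 6169 reads, lower in the irradiated libraries (0.82 for each against control) in which UGT2 and UGT1A counts were higher.

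**Figure D5:**
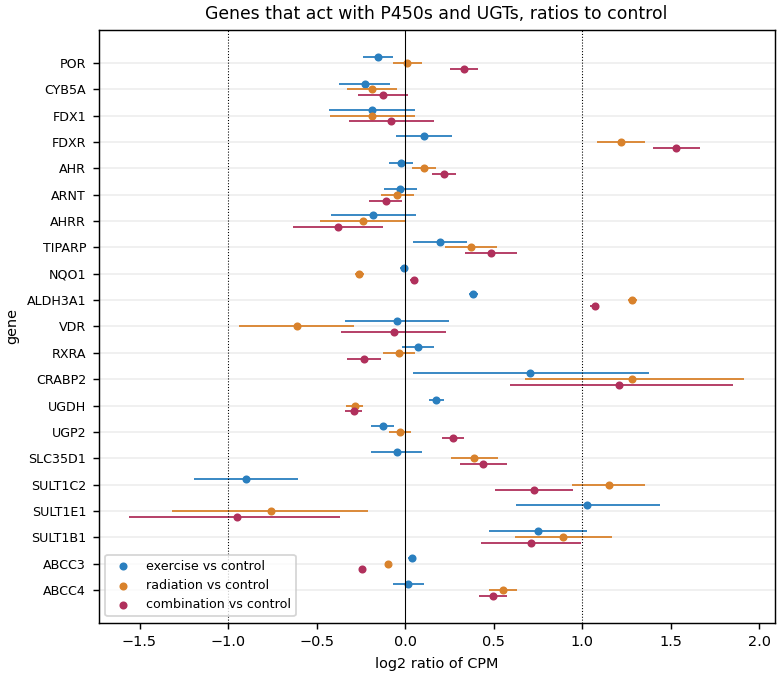
Log2 ratio of CPM to control for genes that act with P450s and UGTs, with 95% counting intervals and dotted lines at 2-fold. FDXR, ALDH3A1, CRABP2 and SULT1C2 pass 2-fold with radiation-alone, and SULT1E1 passes it with exercise-alone.

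Other conjugating enzymes were also uneven. Of 16, 13 were compared, 1 was at least 2-fold higher with exercise and 1 with radiation against control, and none in the combination against control. Against exercise-alone, the combination had 1 higher and 1 lower. SULT1C2, a sulfotransferase, had 287, 149, 620 and 436 reads (radiation to control 2.22, 1.93 to 2.56; combination to exercise 3.09, 2.56 to 3.74). SULT1E1, which sulfates estrogens, had 78, 154, 45 and 37 reads (exercise to control 2.04, 1.54 to 2.71; combination to exercise 0.25, 0.17 to 0.36). Among P450 and UGT genes outside the naming rule, CYP51A1, the sterol 14-demethylase, had 1468, 1590, 1428 and 1742 reads. TBXAS1, the thromboxane synthase, had 2504, 1978, 2828 and 2753. UGT8 and PTGIS had 0 to 7.

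The tumors carried their epithelial markers. KRT8 had 110279 to 125804 reads and KRT18 had 36916 to 42547, while the lung markers NKX2-1, SFTPB, SFTPC and SFTPA1 had at most 5. Summed fibroblast markers were 333, 340, 218 and 189 CPM, lower in the irradiated libraries as CYP24A1, CYP26B1 and CYP27C1 were. Of these 10 markers, 8 could be compared, and 1 was at least 2-fold lower with radiation and 3 in the combination against control. In each of these comparisons 1 of the 8 was above control. Summed endothelial markers were 20.4, 16.1, 11.1 and 7.15 CPM, with 1 of 6 compared. Macrophage markers summed to 366, 354, 425 and 488 CPM, with TYROBP at 0. Of these 8 markers, 4 could be compared, and 1 was at least 2-fold higher with radiation and 3 in the combination against control. The 3 were CD68 (2.48-fold), LYZ (2.96-fold) and CD14 (2.33-fold), while CSF1R, which held most of the sum, was at 0.90 of control. Skeletal muscle markers summed to 2.74, 3.88, 31.1 and 36.4 CPM, and against control 4 of 5 exceeded 2-fold with exercise and all 5 did with radiation and in the combination. Cells other than A549 in these tumors were of the mouse host, whose RNA may add reads to human genes of like sequence. How far these cells took part in the P450 and UGT values was not tested.

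Of the 30 genes below 20 mean reads, 17 had more than 3 reads in some library and 13 had at most 3 in all of them. These 13 include 10 P450s, and 4 of the 13 had none in any library. None of the 30 had more than 31 reads in any library.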

How the data were processed

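Tumor RNA was measured in 4 libraries, 1 per group, mapped to groups by the sample labels. The authors trimmed the reads, aligned them to GRCh38 with Bowtie2 2.3.4.1 and counted them per gene with featureCounts 1.6.0. The submitters' processing notes also name cutadapt. For strand, overlapping genes, mouse reads and the number of tumors per library, the settings are not given in the sources used. The authors deposited read counts, not normalized, and FPKM values. The length implied by the FPKM was within 2% of the whole gene span for 34 of the 45 genes compared. Besides the UGT2 genes given above, it was 6.01 times the span for CYP2D6, 1.55 for CYP2A7 and 1.43 for CYP2R1.

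Scaled CPM were derived with TMM factors of edgeR 4.0.16 (R 4.3.3) and a prior of 0.5 counts. A gene was compared at a mean of 20 or more reads and called at 2-fold. Ratio intervals are exact Clopper-Pearson intervals at 95%. A zero count was read as up to 3 counts, and folds between such libraries were left out. Further steps used python 3.11.15 (scipy 1.17.1, pandas 2.3.3, numpy 2.4.6; figures with matplotlib 3.10.9). Spans are from RefSeq and exons from GENCODE v29, both on GRCh38. UGT1A parts were obtained by subtraction of nested counts, a step chosen after the counts were seen. Calling and intervals were tried on simulated counts with counting error only and planted changes larger than 2-fold. Spread between tumors and changes near 2-fold were not simulated.

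The genes and lists were chosen with earlier results of these data known. Every P450 or UGT gene with a mean of 20 or more reads was to be named (1 is not reported here), others with 5 or more reads in a library could be, and list genes were named at 2-fold or as fixed partners; others were named after their values were seen. The 5 comparisons were exercise, radiation and the combination against control, and the combination against each treatment. Alternatives were priors of 2 and 0.1, a minimum of 100 or none, scaling by total counts or by the median of ratios, FPKM with 0.1 added, a 1.5-fold limit, whole intervals beyond 2-fold, and UGT1A left out.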

Additional observations from a re-analysis of the deposited data

Results flagged for a closer look

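The exercised-over-sedentary ratio of 2 genes had opposite signs in the pair of comparisons that share no library, each with a counting interval clear of 0. CYP27C1 had a log2 ratio of 0.216 for exercise over control and −0.576 for the combination over radiation. UGT2B15 had a log2 ratio of −0.379 for exercise over control and 0.297 for the combination over radiation. With 1 library per group, the difference between the pairs was not tested.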

How the results depend on the processing

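Counts of genes at 2-fold are small, and many moved with the settings. With a prior of 2, genes higher with exercise went from 2 to 1 and lower from 1 to 0, those lower with radiation from 1 to 0, and those lower in the combination than with exercise from 2 to 1. Without a minimum, counts higher and lower were 6 and 2 with exercise, 8 and 4 in the combination against control, 3 and 6 against radiation and 5 and 5 against exercise, and 8 were higher with radiation. With a minimum of 100, they were 0 and 0 with exercise, 0 and 0 with radiation and 2 and 1 in the combination against control, 1 lower against radiation, and 1 and 1 against exercise. Total-count scaling gave 1 higher with exercise and 2 in the combination against control. FPKM with 0.1 added gave 0 and 0 with exercise, 0 and 0 with radiation, 0 and 1 in the combination against control, 0 lower against radiation and 0 and 1 against exercise; the added 0.1 is large beside low values. At 1.5-fold, counts were 4 and 4 with exercise, 6 and 5 with radiation, 13 higher in the combination against control (8 of them UGT1A genes, which share reads), 2 higher against radiation, and 6 and 7 against exercise. With the whole interval beyond 2-fold, they were 0 and 0 with exercise, 0 and 0 with radiation, 0 and 1 in the combination against control, 0 lower against radiation and 1 lower against exercise. CYP27C1 is the 1 gene lower against control there. None of the 19 gene ratios past 2-fold changed sign under the priors, scalings or FPKM, and of their 95 values 14, all with FPKM, left their counting interval. Ratios near 1 did change sign: of the 45 genes, those above control with radiation went from 31 to 27 under total-count scaling, and those above control in the combination from 27 to 25, or to 28 under the median of ratios. The 40 alternative medians moved by less than the median counting error of a gene. No paired analysis was possible because each group has 1 library and the labels carry no replicate numbers. Depth limits the genes with few reads most, and the spread between tumors is unknown at any depth.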
